A study of Saccharomyces cerevisiae with 24 samples.

Results

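The genes described here encode the proteins of the small subunit of the cytosolic ribosome of budding yeast. They were taken as the non-control probe sets whose gene symbols all consist of RPS, a number and an optional A or B, without RPS22A and RPS22B. The rule reads gene symbols only, but it was set with earlier results of these data known. It gave 64 probe sets of 9275, covering 53 of the 5923 genes named on the array and 30 proteins. Of the 64 probe sets, 43 carry 1 gene symbol and 21 carry both copies of a duplicated gene.

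The samples were 24 Affymetrix YG-S98 arrays of total RNA from 12 strains, 2 biological replicates each. The 7 large subunit deletions were rpl7a and rpl7b, rpl12a and rpl12b, rpl14a, and rpl22a and rpl22b, and the 4 small subunit deletions were rps0a, rps0b, rps18a and rps18b. Each lacked 1 copy of a duplicated ribosomal protein gene and was compared with wild-type BY4741 (WT), the strain background named for every sample. All 12 strains grew in the rich medium YPD at 30 °C as 50 mL cultures taken in early log phase, so no group differed in treatment or time. The study asked whether the 2 copies of a duplicated ribosomal protein gene act differently. A deletion is represented by the cultures of 1 strain, and the labels do not say whether the replicates of a strain came from independent transformants. Except between large and small subunit deletions, the p-values therefore measure the spread between cultures of the same strain, also for means over several deletions. Between large and small subunit deletions they measure the spread between strain means. All comparisons with WT share its 2 arrays.

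The small subunit binds mRNA and initiator tRNA, and in its decoding centre each codon is matched to a tRNA. Its proteins assemble around the small subunit rRNA in the nucleolus, nucleus and cytoplasm with the help of dedicated factors. Most of these proteins in yeast are encoded by a pair of nearly identical genes kept since an ancient genome duplication, many of them with introns. Their promoters are driven together in growing cells, chiefly by Rap1, Fhl1 and Ifh1. A few members adjust their own mRNA: the Rps14 protein holds back splicing of the RPS14B transcript, splicing of the RPS9A transcript responds to Rps9, and Rps28 promotes decay of RPS28B mRNA.

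Signal in these probe sets was high. The median member lay at percentile 98.16 of all probe sets by mean signal, and 60 of 64 lay in the top 10%. Of the members, 62 were above background in all 24 arrays. Background was set in each array at the 95th percentile of 19 controls that match nothing in yeast. The files give no saturation flag, so compression of the brightest probe sets was not tested. The median SD between replicates was 0.124 on the log2 scale for members and 0.303 for all probe sets. The deposited median intensity per array ran between 36.3 and 61.4, and background between 5.55 and 30.8, the highest in rps0a replicate 2.

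Before the comparisons, some arrays carried features that their labels do not name. Genes of chromosome XVI averaged 0.919 ± 0.062 (SE) higher on the log2 scale in rpl7a than in WT, over 434 genes. Genes of chromosome V were 0.929 ± 0.066 higher in rpl12b than in WT over 253 genes, and those of chromosome VIII 0.769 ± 0.065 higher in rpl14a than in WT over 257 genes. In rpl14a, 7 of 8 probe sets of a-specific genes fell, where 3.34% of all probe sets were called. Of the same 8, 2 fell in rpl7a (6.57% of all called) and 1 in rpl22a (2.45%). The 4 probe sets of alpha-specific genes had no call in any deletion. The auxotrophic marker genes had no call in 10 strains, while both HIS3 probe sets rose in rpl22a. The part of these features in the results below was not tested, beyond the values given beside each result.

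The deleted small subunit genes were checked in their own strains, where they are left out of all later counts. RPS0A and RPS0B encode Rps0, which sits at the back of the small subunit and is needed for the last cleavage of its rRNA precursor. RPS0A probe set 4780_at had 3.30 and 1.91 in the rps0a arrays, against 12.27 and 12.31 in the WT arrays (normalised log2 signal). Its deposited intensities in rps0a were 10.8 and 7.3, with array backgrounds of 5.55 and 30.8, so it was above background in 1 of the 2 arrays. RPS0B probe set 10301_at had 7.01 and 7.51 in the rps0b arrays and 13.62 and 13.54 in the WT arrays. In both cases the deletion arrays lay far below every WT array. RPS0A was at least 349-fold lower in rps0a than in WT, with the array below background set to the lowest signal above background there, and RPS0B differed by -6.32 ± 0.14 (log2, SE) in rps0b. The adjusted p-values were 5.66e-11 and 1.19e-12, as everywhere below from limma's moderated test with Benjamini-Hochberg adjustment over all 9275 probe sets. For RPS0A the test was on the normalised values as they stood, a difference of -9.69, and not on the 349-fold bound.

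The probe sets that can match both copies showed smaller drops. RPS0A probe set 4779_f_at fell by 4.31 in rps0a (adjusted p 1.47e-10), and RPS0B probe set 10300_f_at fell by 2.90 in rps0b (adjusted p 1.67e-05). Probe set 10302_g_at, named for both RPS0 copies, differed from WT by -0.32 in rps0a (adjusted p 0.192) and by -0.20 in rps0b (adjusted p 0.348), neither passing 0.05. RPS18A and RPS18B encode Rps18, a head protein that contacts the large subunit, and share 1 probe set, 9684_s_at. It had 12.56 and 12.59 in rps18a and 12.61 and 12.61 in rps18b, against 13.18 and 13.13 in WT. Both RPS18 deletions lay below the WT arrays, by 0.58 ± 0.11 (adjusted p 0.0271) and 0.55 ± 0.11 (adjusted p 0.0483). Because 1 probe set reads both RPS18 copies, the level of the remaining copy is not known.

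The remaining RPS0 copy had no call in either RPS0 deletion. RPS0B differed from WT by 0.04 ± 0.14 (10301_at) and 0.01 ± 0.23 (10300_f_at) in rps0a, with adjusted p-values of 0.972 and 1.000. RPS0A differed from WT by 0.10 ± 0.29 (4780_at) and 0.04 ± 0.14 (4779_f_at) in rps0b, with adjusted p-values of 0.948 and 0.960. An increase of the size of these standard errors would not have been detectable with 2 arrays a strain. These standard errors include the spread in the strain that lacks the gene, where the replicate SD of 4780_at was 0.982. The rps0b arrays of 4780_at, at 12.33 and 12.44, lay above the WT arrays at 12.27 and 12.31.

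**Figure D1:**
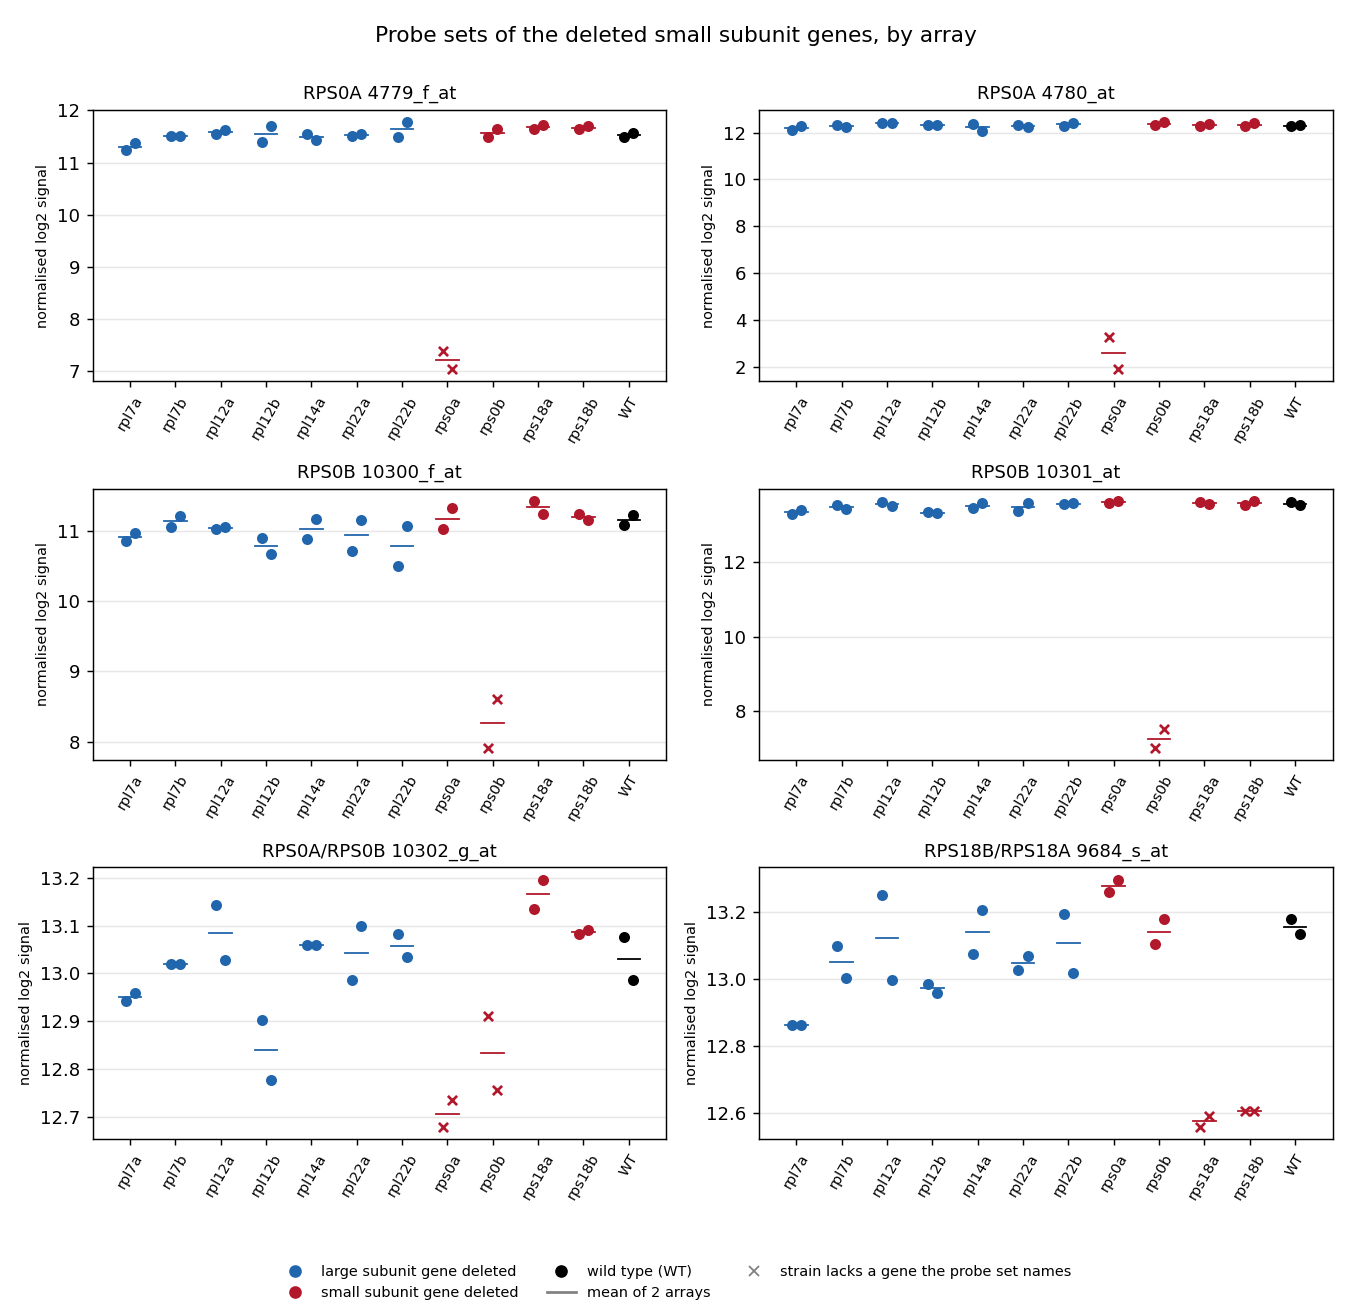
Normalised log2 signal (vertical axes, each with its own range) of the 6 probe sets of the deleted small subunit genes in both arrays of the 11 deletions and of WT. Crosses mark strains that lack a gene the probe set names, lines are means of 2 arrays: RPS0A and RPS0B drop only in their own deletions, while the shared RPS18 probe set drops by 0.58 and 0.55.

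Across the 11 comparisons of a deletion with WT, the calls among small subunit genes lay mostly in RPS9. There were 17 calls at an adjusted p under 0.05 among 696 tests, 6 higher and 11 lower, on 8 probe sets that name 10 genes. That was 2.44% of the members' tests, beside 1.7% for all probe sets in the same comparisons. The direction of the calls depended on the scaling: there were 12 calls without normalisation, all lower, and 18 with median centring, of which 2 were higher. Of the 17 calls with quantile normalisation, 9 were RPS9 probe sets, and the others were RPS14B, RPS10A, RPS16, RPS23 and RPS24. The other 56 probe sets had no call in any deletion. Their 608 differences from WT lay between -1.25 and 0.78. Over all 64 members 74.9% of the differences were within 0.2 of 0, beside 43% over all probe sets, whose SD between replicates was larger. In bulk cultures, fewer cells with a transcript and less of it per cell cannot be told apart.

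The strains differed in how many members were called, and each count stands beside the share of all 9275 probe sets called in that strain. In rpl7a, 7 of 64 members were called, 3 higher and 4 lower, beside 6.57% of all probe sets. Those 7 became 5 without normalisation, all lower, and 5 with median centring, of which 1 was higher. In rpl14a, 3 members were called beside 3.34% of all, and in rps0b 2 of 61 beside 2.62%. None of the 3 in rpl14a passed without normalisation. A single member was called in each of rpl12b (2.1% of all), rpl22a (2.45%), rps0a (0.291%), rps18a (0.668%) and rps18b (0.334%). No member was called in rpl7b (0.0323% of all), rpl12a (0.291%) or rpl22b (0.0216%). At an unadjusted p under 0.05, limma counted 3 members in rpl7b (2.67% of all probe sets), 2 in rpl12a (8.59%) and 7 in rpl22b (4.31%). The called share of the members was 10.9% in rpl7a and 4.69% in rpl14a, and between 1.56% and 3.28% in the other 6 strains with a call.

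**Figure D2:**
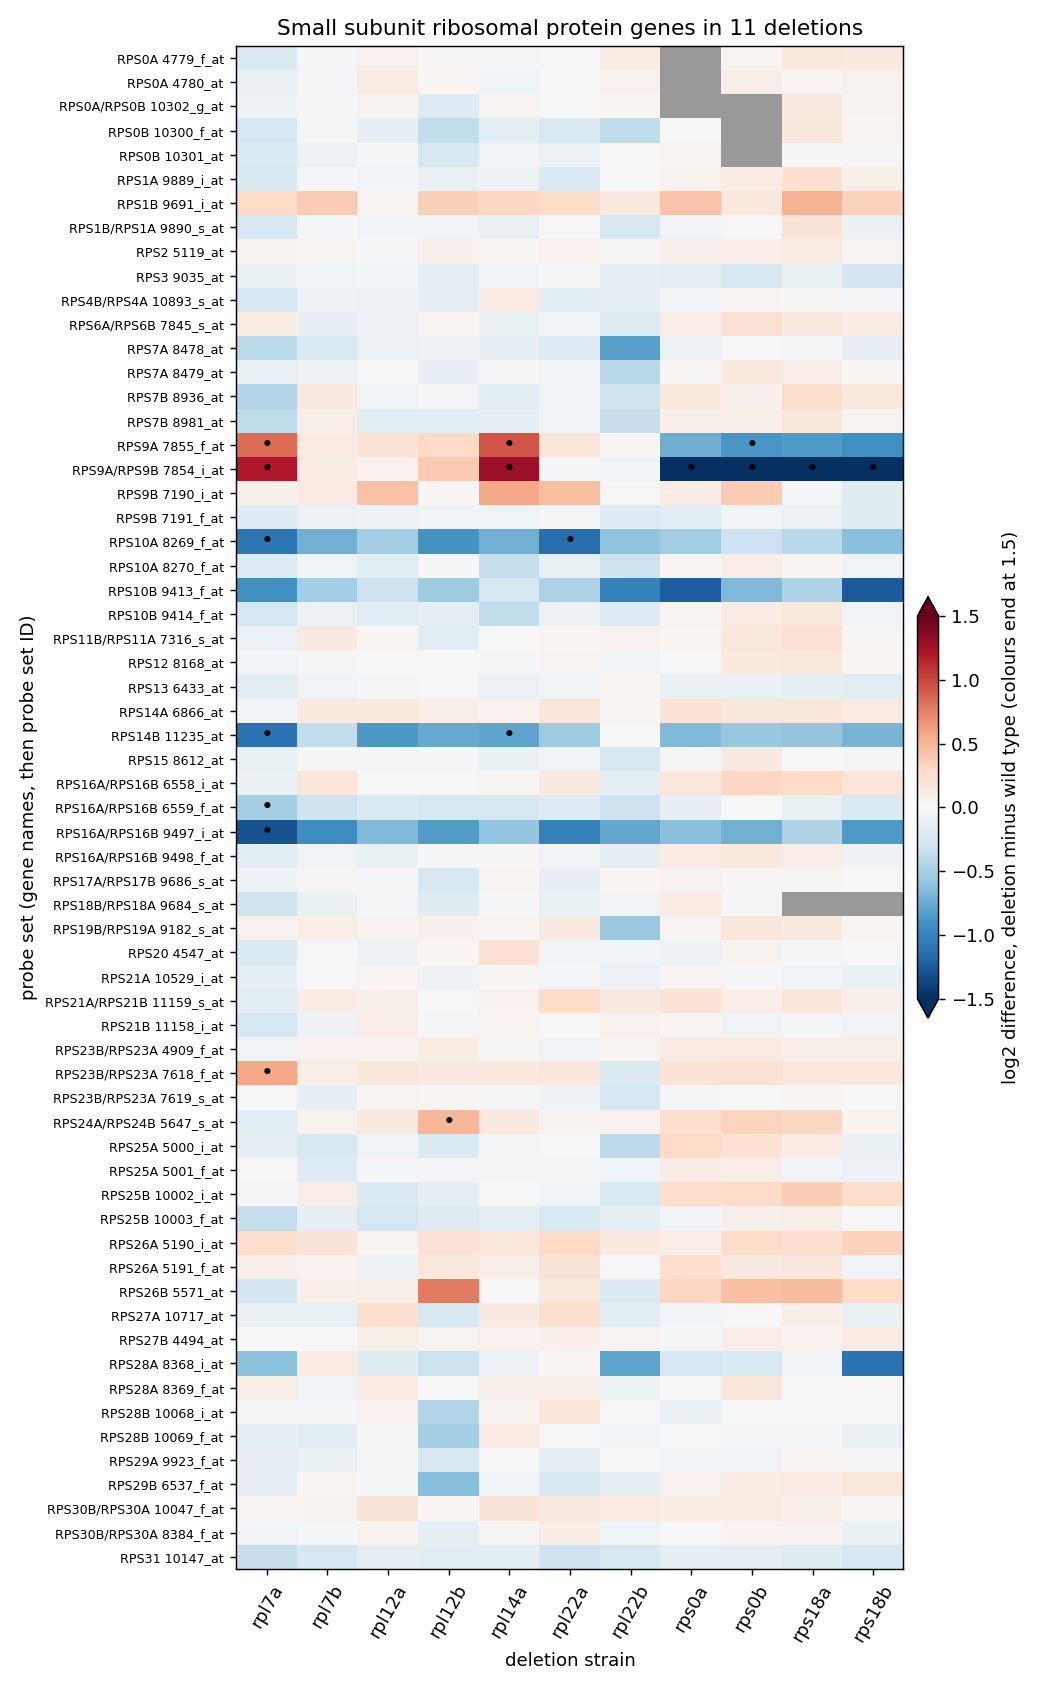
Log2 difference of each deletion (columns) from WT for the probe sets reported (rows, ordered by protein number), with colours ending at 1.5 in both directions. Grey cells are a deleted gene's probe sets in its own strain and black dots mark the 17 differences with an adjusted p under 0.05. The RPS9 rows 7854_i_at and 7855_f_at carry 6 and 3 of the 17 dots, and most other cells are pale.

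The members' median difference from WT was small with quantile normalisation and depended on the scaling. With quantile normalisation it was lowest in rpl7a at -0.12 and highest in rps0b at 0.10, and lay between -0.079 and 0.067 in the other 9 deletions. The large subunit ribosomal protein genes had medians of -0.071 in rpl7a and 0.059 in rps0b. Without normalisation, the members' median minus that of all probe sets was -0.196 in rpl12b, -0.158 in rpl22b, -0.146 in rpl22a and -0.12 in rpl12a, against -0.0405, -0.0802, -0.0131 and -0.0247 with quantile normalisation. The sign for 3 small subunit deletions turned: without normalisation, members minus all probe sets was -0.152 in rps0a, -0.0569 in rps0b and -0.0329 in rps18a, against 0.0299, 0.0961 and 0.0669 with quantile normalisation. In rpl7a that value was -0.108 with quantile normalisation and -0.365 without it. No direction is therefore given for the group in the small subunit deletions.

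The 7 members with no other copy, RPS2, RPS3, RPS12, RPS13, RPS15, RPS20 and RPS31, had no call in any deletion. Their strain means spanned between 0.135 and 0.427 across the 12 strains. RPS2, whose protein lies at the mRNA entry channel, had the narrowest span of all 64 members, with strain means between 13.09 in rpl12a and 13.23 in rps18a. RPS3, also at the entry channel, spanned 0.274, with a replicate SD of 0.032, and was highest in WT. Every deletion array of RPS3 lay below both WT arrays. Its mean difference over the 11 deletions was -0.12 (limma adjusted p 0.539). RPS20, which encodes a head protein, spanned 0.427 and was highest in rpl14a. RPS31, made as a fusion with ubiquitin, spanned 0.348 and was highest in WT. Over all 64 members the median span was 0.425, with 39 members under 0.5 and 8 over 1.

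RPS9 held 9 of the 17 calls. Its 2 genes encode Rps9, a protein of the mRNA entry side whose mutations alter decoding accuracy. Probe set 7854_i_at, which names both copies, and probe set 7855_f_at, which names RPS9A, fell in the small subunit deletions and rose in rpl7a and rpl14a. Both probe sets of RPS9B alone had no call.

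For 7854_i_at, the small subunit deletions gave 6.02 and 6.23 in rps0a, 5.99 and 6.12 in rps0b, 6.03 and 5.93 in rps18a, and 5.99 and 6.28 in rps18b. WT had 8.35 and 8.20. All 8 small subunit deletion arrays lay below every other array of the series, and the 4 strains overlapped each other. The differences from WT were -2.15 in rps0a, -2.22 in rps0b, -2.30 in rps18a and -2.14 in rps18b, each ± 0.16 (SE). Their limma adjusted p-values ran between 7.55e-06 and 1.9e-05.

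In the large subunit deletions, 7854_i_at had 9.65 and 9.30 in rpl7a and 9.61 and 9.49 in rpl14a. It had 8.37 and 8.40 in rpl7b, 8.53 and 8.15 in rpl12a, 8.76 and 8.57 in rpl12b, 8.38 and 8.13 in rpl22a, and 8.22 and 8.19 in rpl22b. The arrays of rpl7a, rpl14a, rpl12b and rpl7b lay above both WT arrays, those of rpl7b narrowly, while the other 3 large subunit deletions overlapped WT. The rises were 1.20 ± 0.16 in rpl7a (adjusted p 0.000763) and 1.28 ± 0.16 in rpl14a (adjusted p 0.000866). In the other 5 large subunit deletions the differences from WT were between -0.07 and 0.39, none passing 0.05. Without normalisation the rises were 0.85 in rpl7a (adjusted p 0.16) and 1.25 in rpl14a (adjusted p 0.0874), and neither passed.

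Probe set 7855_f_at of RPS9A was likewise low in the small subunit deletions and high in rpl7a and rpl14a, on a smaller scale. It had 9.10 and 8.82 in rps0a, 8.97 and 8.67 in rps0b, 8.88 and 8.82 in rps18a, and 8.92 and 8.63 in rps18b, against 9.63 and 9.76 in WT. It had 10.63 and 10.44 in rpl7a and 10.70 and 10.57 in rpl14a, the highest arrays of the series. Small subunit deletions, WT and these 2 strains did not overlap, while the other 5 large subunit deletions lay between 9.55 and 10.15. Of these, rpl12b and rpl22a lay just above both WT arrays and the other 3 overlapped them. It rose by 0.84 ± 0.19 in rpl7a (adjusted p 0.0177) and by 0.94 ± 0.19 in rpl14a (adjusted p 0.0175), and it fell by 0.87 ± 0.19 in rps0b (adjusted p 0.0329). The differences of -0.74 in rps0a, -0.85 in rps18a and -0.92 in rps18b did not pass, with adjusted p-values of 0.145, 0.0565 and 0.0701. Each of the 3 single-strain calls was lost when any 1 of its 4 arrays was left out, with values of 0.74 to 0.94 in rpl7a, 0.87 to 1.01 in rpl14a and -1.02 to -0.72 in rps0b. All 3 also failed without normalisation, where the value in rpl7a was 0.32.

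RPS9B did not share this pattern. Probe set 7191_f_at spanned 0.197 across the 12 strain means, and its differences from WT lay between -0.20 and -0.01. Probe set 7190_i_at had replicate pairs as far apart as 11.23 and 10.44 in rps0b, against 10.28 and 10.63 in WT. Its differences from WT ran between -0.18 in rps18b and 0.57 in rpl14a, with every adjusted p at 0.333 or above.

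RPS9A lies on chromosome XVI and RPS9B on chromosome II. In rpl7a the rises of 1.20 and 0.84 stood beside a chromosome XVI mean of 0.919. In rpl14a, where RPS9A rose as much, the chromosome XVI mean was -0.0132 ± 0.0621, and in the 4 small subunit deletions it lay between -0.0206 and 0.0372. The chromosome II mean lay between -0.0802 and 0.0219 in all 11 deletions.

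**Figure D3:**
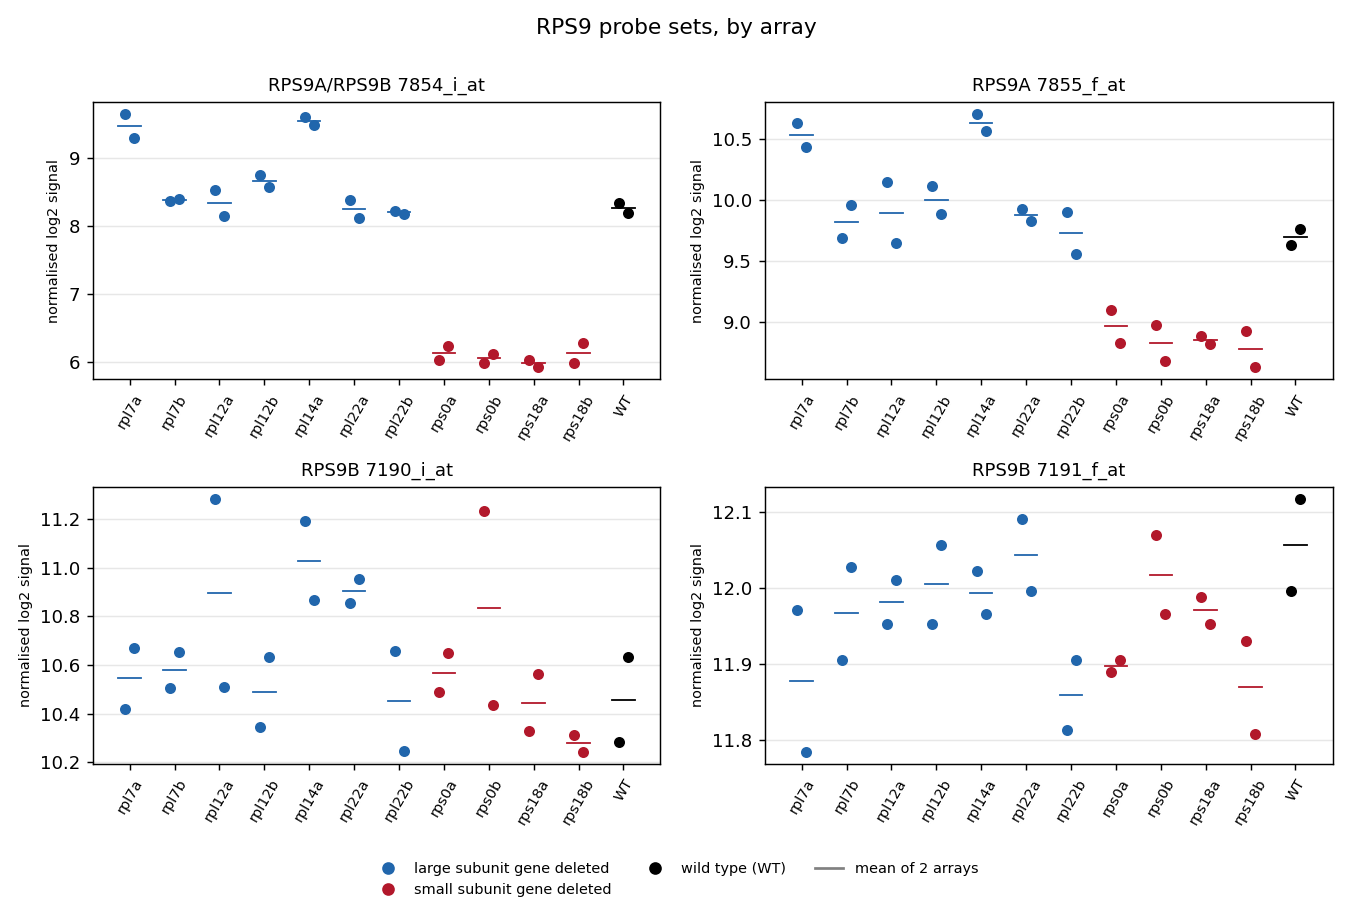
Normalised log2 signal (vertical axes, each with its own range) of the 4 RPS9 probe sets in both arrays of the 11 deletions and of WT. In 7854_i_at and 7855_f_at all 8 small subunit deletion arrays lie below WT and rpl7a and rpl14a lie above it, while both RPS9B probe sets overlap between groups.

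Taken over the 4 small subunit deletions, 3 of 64 members fell and none rose, beside 2.75% of all probe sets called. Probe set 7854_i_at averaged 6.07 in the small subunit deletions and 8.27 in WT, a difference of -2.20 ± 0.13 (SE, adjusted p 6.11e-07), or 4.60-fold lower. RPS9A probe set 7855_f_at averaged 8.85 in the deletions and 9.70 in WT, a difference of -0.84 ± 0.15 (adjusted p 0.0126). RPS14B averaged 10.367 in the deletions and 10.996 in WT, a difference of -0.63 ± 0.15 (adjusted p 0.0431). The call of 7855_f_at was lost when either WT array was left out (highest adjusted p 0.153). That of RPS14B was lost in 13 of 24 fits that left out 1 array, either WT array among them, with differences of -0.67 to -0.59.

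The other 2 of the 5 lowest members in the small subunit deletions were RPS10B 9413_f_at at -0.90 (adjusted p 0.352) and RPS16 9497_i_at at -0.66 (adjusted p 0.229). The 5 highest were RPS26B 5571_at at 0.38, RPS1B 9691_i_at at 0.36, RPS25B 10002_i_at at 0.29, RPS26A 5190_i_at at 0.24 and RPS16 6558_i_at at 0.24. None of these 5 passed, with adjusted p-values between 0.273 and 0.486. RPS22B, outside the set described here, also fell over the 4 small subunit deletions, with a mean difference of -2.41 ± 0.20 in probe set 9946_at (adjusted p 2.99e-05).

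The 7 large and 4 small subunit deletions were compared with the strain as the unit. Of 64 members, 2 were higher and 1 was lower in the large subunit deletions, beside 3.32% of all probe sets called. Probe set 7854_i_at averaged 8.70 in the large subunit deletions and 6.07 in the small, a difference of 2.62 ± 0.28 (SE, adjusted p 0.00119). RPS9A 7855_f_at averaged 10.07 in the large subunit deletions and 8.85 in the small, a difference of 1.22 ± 0.18 (adjusted p 0.00641). Without rpl7a, rpl12b and rpl14a these 2 differences were 2.22 (adjusted p 2.78e-05) and 0.98 (adjusted p 0.00433).

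RPS25B, whose protein is known for its role in internal initiation of translation, was lower in the large subunit deletions. Probe set 10002_i_at averaged 10.75 in the large subunit deletions and 11.13 in the small, with 10.83 in WT. The difference was -0.37 ± 0.08 (adjusted p 0.0269), and the arrays of the groups overlapped. It was -0.16 without normalisation (adjusted p 0.639) and -0.18 with median centring (adjusted p 0.501), and leaving out rpl7a replicate 2, rpl7b replicate 1 or rps18b replicate 1 ended the call, with an adjusted p up to 0.0788. Leaving out rpl12a, any 1 of the 4 small subunit deletions, or the 3 strains with a raised chromosome together also ended it. The other RPS25B probe set and both RPS25A probe sets had no call.

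At an unadjusted p under 0.05, 18 members differed between large and small subunit deletions, beside 17.4% of all probe sets. The next lowest members in the large subunit deletions were RPS10A 8269_f_at at -0.34, RPS26B 5571_at at -0.29, RPS7B 8936_at at -0.29 and RPS0B 10300_f_at at -0.29, with adjusted p-values between 0.185 and 0.436. The next highest were RPS10B 9413_f_at at 0.33, RPS9B 7190_i_at at 0.17 and RPS28A 8368_i_at at 0.14, with adjusted p-values between 0.440 and 0.816. Over the 58 members that name no deleted gene the median was -0.0744, beside 0.00169 over all probe sets. Of these 58, 48 (82.8%) were lower in the large subunit deletions with quantile normalisation, 38 (65.5%) without normalisation and 43 (74.1%) with median centring. Of all probe sets, 50.9% were higher in the large subunit deletions with quantile normalisation. The large subunit ribosomal protein genes leaned the same way, with a median of -0.0898. Of their 81 probe sets, 8 were higher with quantile normalisation, 18 without normalisation and 13 with median centring.

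Among the 12 strains, 3 of 64 members differed by the moderated F test, beside 11.4% of all probe sets. They were 7854_i_at (F 132.6, adjusted p 3.8e-09), RPS9A 7855_f_at (F 22.48, adjusted p 0.000126) and RPS14B 11235_at (F 5.74, adjusted p 0.0219). The F call of RPS14B was lost when either WT array was left out (adjusted p up to 0.0628). The 7 that followed by F were RPS24 5647_s_at, RPS26B 5571_at, RPS29B 6537_f_at, RPS25B 10002_i_at and 10003_f_at, RPS23 7618_f_at and RPS16 6559_f_at, with adjusted p-values between 0.0527 and 0.14. RPS29B was lowest in rpl12b, at -0.64 ± 0.17 from WT (adjusted p 0.0722).

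RPS14B, the copy of the platform protein Rps14 that responds to the protein's own level, had strain means below WT in every deletion. Probe set 11235_at had 9.67 and 10.11 in rpl7a, 10.04 and 10.37 in rpl14a, 10.14 and 10.14 in rpl12a, and 10.14 and 10.34 in rpl12b, against 11.0002 and 10.9921 in WT. It had 10.34 and 10.58 in rpl22a, 10.63 and 10.62 in rpl7b, and 10.75 and 11.23 in rpl22b. The small subunit deletions lay between 10.20 and 10.58. Only rpl22b overlapped WT.

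RPS14B fell by 1.11 ± 0.19 in rpl7a (adjusted p 0.00337) and by 0.79 ± 0.19 in rpl14a (adjusted p 0.0376). In the other 9 deletions its difference from WT lay between -0.86 in rpl12a and -0.01 in rpl22b, with adjusted p-values of 0.0647 or above. The fall in rpl7a kept an adjusted p of 0.0449 or below when any 1 of its arrays was left out, while that in rpl14a lost the call with each of its 4 arrays (-0.96 to -0.62). RPS14B lies on chromosome X, whose mean difference from WT was -0.15 in rpl7a and -0.0423 in rpl14a. RPS14A 6866_at had no call, with differences between -0.04 in rpl7a and 0.21 in rps0a. Its arrays lay between 11.58 and 12.003 in the deletions and at 11.64 and 11.86 in WT.

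Over the mean of all 11 deletions, no member was called, beside 0.41% of all probe sets, and 5 members had an unadjusted limma p under 0.05, beside 11.1% of all probe sets. The lowest 5 were RPS16 9497_i_at at -0.80, RPS10B 9413_f_at at -0.69, RPS10A 8269_f_at at -0.69, RPS14B at -0.63 (adjusted p 0.07) and 7854_i_at at -0.53 (adjusted p 0.0745). The last of these averages strains in which 7854_i_at rose and strains in which it fell. The 5 highest were RPS1B 9691_i_at at 0.30, RPS26A 5190_i_at at 0.21, RPS26B 5571_at at 0.19, RPS9B 7190_i_at at 0.18 and RPS23 7618_f_at at 0.16, with adjusted p-values between 0.506 and 0.832.

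RPS10A, RPS16 and RPS23 were called through some of their probe sets and not through others, and RPS24 through its single probe set. RPS10A encodes a protein of the head, and its probe set 8269_f_at had 10.12 and 10.51 in rpl7a and 10.04 and 10.49 in rpl22a, against 11.37 and 11.42 in WT. All deletion arrays of this probe set lay below both WT arrays. It fell by 1.08 ± 0.26 in rpl7a (adjusted p 0.024) and by 1.13 ± 0.26 in rpl22a (adjusted p 0.0387), with differences of -0.90 to -0.31 in the other 9 deletions that did not pass. Leaving out either WT array or rpl7a replicate 1 ended the call in rpl7a (adjusted p up to 0.177), and any of its 4 arrays ended that in rpl22a (up to 0.187). The other RPS10A probe set, 8270_f_at, differed from WT by -0.19 in rpl7a and -0.11 in rpl22a and was not called. RPS10B had no call in either of its probe sets.

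RPS16, which encodes a protein whose tail reaches the P-site tRNA, has 4 probe sets naming both copies. Probe set 9497_i_at had 6.63 and 7.12 in rpl7a, against 8.15 and 8.21 in WT. Every deletion array of this probe set lay below the same 2 WT arrays. Yet replicates lay as far apart as 8.12 and 7.34 in rps18a, and the SD between replicates was 0.351. It fell by 1.31 ± 0.34 in rpl7a (adjusted p 0.0319), and probe set 6559_f_at fell by 0.50 ± 0.12 there (adjusted p 0.0179). Probe sets 6558_i_at and 9498_f_at differed by -0.10 and -0.17 in rpl7a and were not called. Leaving out either WT array or rpl7a replicate 1 ended both calls, with an adjusted p up to 0.211 for 9497_i_at and 0.156 for 6559_f_at, and rpl7a replicate 2 ended that of 9497_i_at too.

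RPS23 encodes a protein of the decoding centre. Its probe set 7618_f_at had 12.74 and 12.73 in rpl7a, against 12.10 and 12.23 in WT, and rose by 0.57 ± 0.14 (adjusted p 0.0266). Its probe sets 4909_f_at and 7619_s_at differed by -0.05 and 0.00 in the same strain. RPS24 5647_s_at had 11.70 and 11.71 in rpl12b, against 11.18 and 11.22 in WT, and rose by 0.50 ± 0.12 (adjusted p 0.0459). The rpl7a and rpl12b arrays lay above WT without overlap in these 2 probe sets. Both calls were lost with any 1 of their 4 arrays left out (adjusted p up to 0.182 and 0.282), and without normalisation the differences were 0.11 and 0.12.

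**Figure D4:**
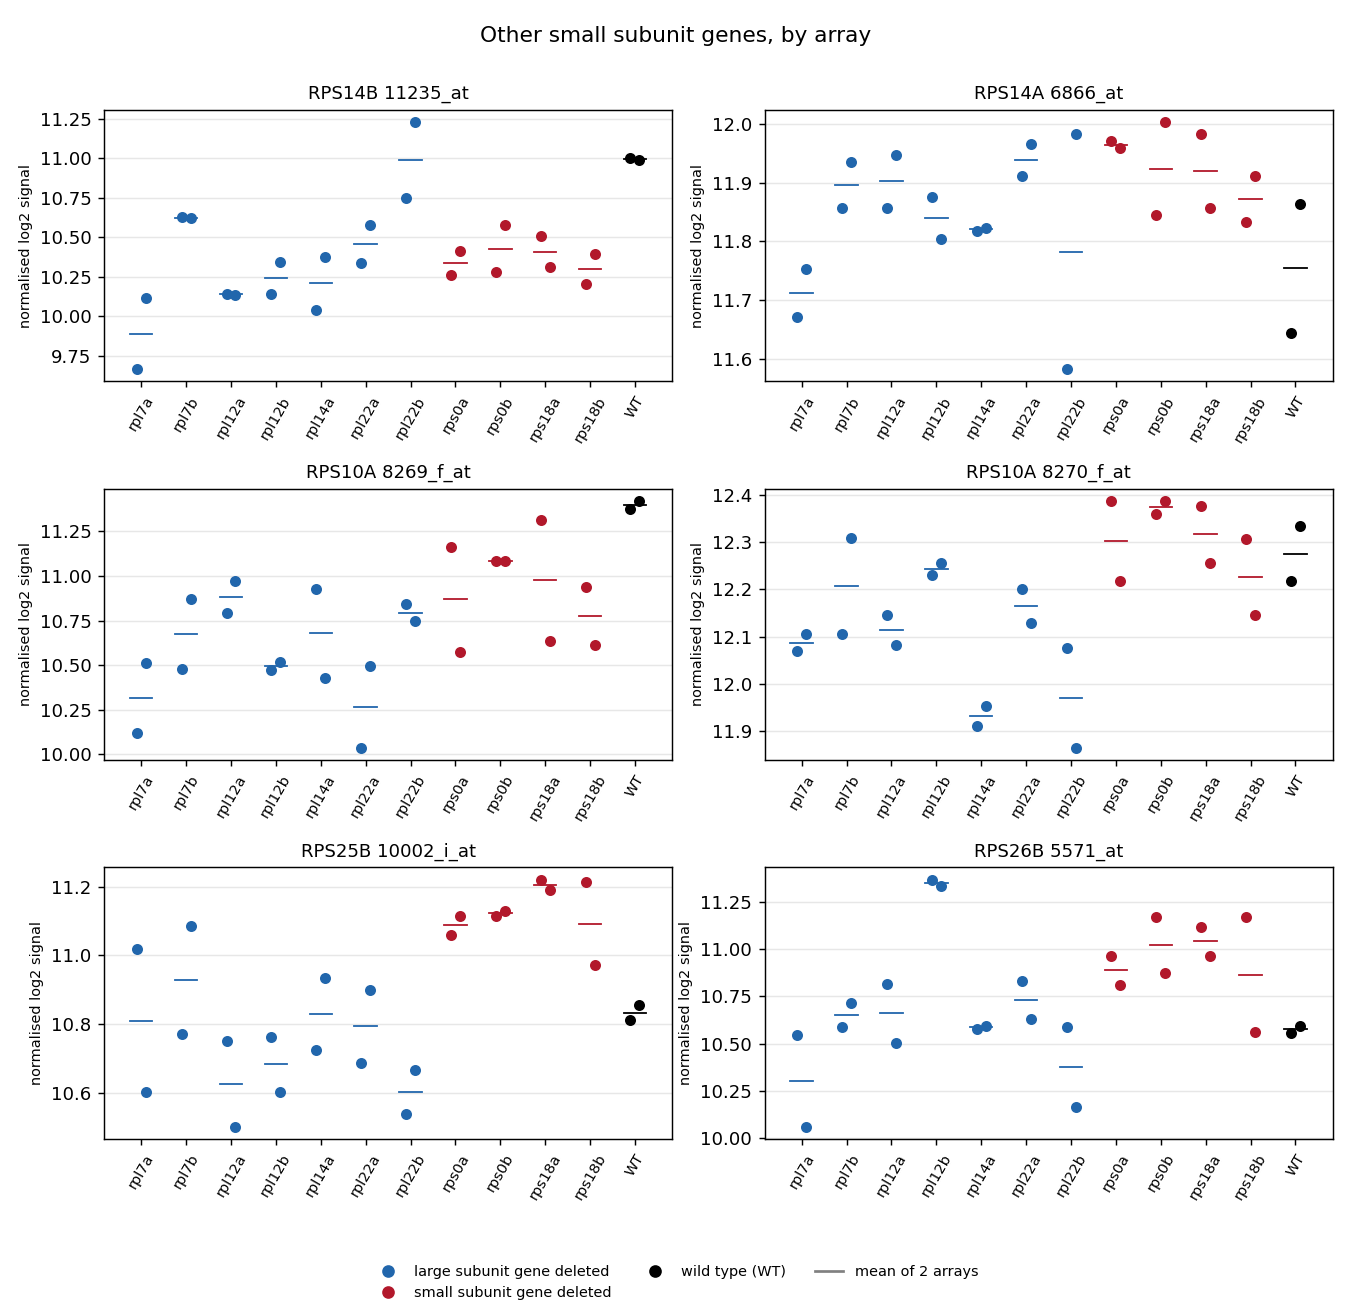
Normalised log2 signal (vertical axes, each with its own range) of RPS14B, RPS14A, both RPS10A probe sets, RPS25B 10002_i_at and RPS26B in both arrays of the 11 deletions and of WT. RPS14B arrays lie below WT in all deletions but rpl22b, RPS14A arrays do not, only 1 of the 2 RPS10A probe sets is low, and RPS26B is highest in rpl12b.

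Some members lie on the chromosomes with raised signal. In rpl7a, the chromosome XVI mean was 0.919, and RPS9A, alone in naming only a gene there, rose by 0.84. The probe sets naming 1 copy there and another elsewhere differed by 1.20 for RPS9, 0.57, -0.05 and 0.00 for RPS23 and 0.11 for RPS6. In rpl12b, RPS26B on chromosome V had 11.37 and 11.34, against 10.56 and 10.60 in WT. Its protein lies near the mRNA exit channel. The rpl12b arrays of RPS26B lay above all other arrays of the series. The difference of 0.78 ± 0.21 did not pass (adjusted p 0.093). The RPS24 probe set, which names 1 copy on chromosome V and another on chromosome IX, differed by 0.50 in rpl12b, beside a chromosome V mean of 0.929.

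In rpl14a, the members on chromosome VIII showed less difference than their chromosome. RPS20 differed from WT by 0.22 ± 0.12 (adjusted p 0.395) and RPS27B by 0.06 ± 0.12 (adjusted p 0.899), while the chromosome mean was 0.769. The RPS4 probe set, which names 1 copy on chromosome VIII and another on chromosome X, differed by 0.13 ± 0.11 (adjusted p 0.676). The WT log2 signals of these 3 probe sets were 11.94, 13.14 and 12.30. The part of signal compression in this gap was not tested.

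**Figure D5:**
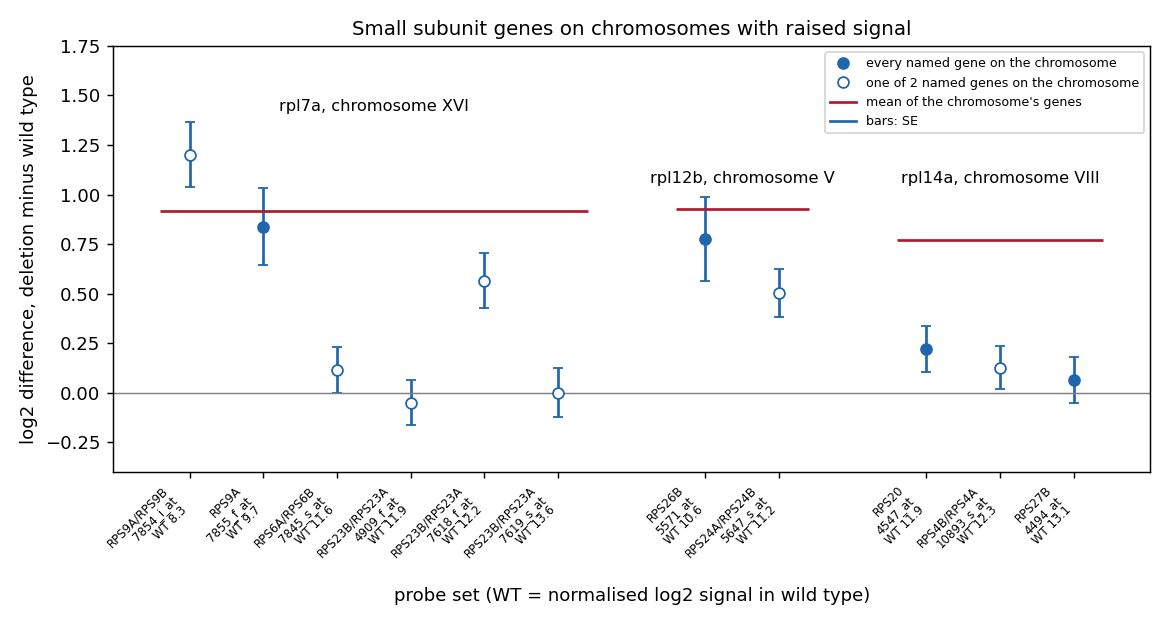
Log2 difference from WT (vertical axis, ± SE) of the small subunit probe sets reported on chromosome XVI in rpl7a, V in rpl12b and VIII in rpl14a, with the chromosome's mean as a red line. RPS9A and RPS26B lie near the lines at 0.84 and 0.78, while RPS20 and RPS27B in rpl14a lie at 0.22 and 0.06 under a line at 0.769.

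Deletions of the 2 copies of a gene were compared with each other in 5 pairs. Of 314 tests, 3 passed, all between rpl7a and rpl7b, where 5.35% of all probe sets were called. Probe set 7854_i_at was higher in rpl7a than in rpl7b by 1.09 ± 0.16 (adjusted p 0.0016), and RPS9A 7855_f_at by 0.71 ± 0.19 (adjusted p 0.0465). RPS14B was lower in rpl7a than in rpl7b, by -0.74 ± 0.19 (adjusted p 0.0395). Without normalisation the 2 RPS9 differences were 0.81 (adjusted p 0.243) and 0.27 (adjusted p 0.793), which left 1 call, RPS14B. With median centring 1 of 3 calls was higher. Leaving out rpl7a replicate 1 or either rpl7b array ended the RPS14B call (adjusted p up to 0.277), and any of the 4 arrays ended that of RPS9A 7855_f_at (up to 0.328).

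No member was called between rpl12a and rpl12b (1.65% of all probe sets called), rpl22a and rpl22b (2.82%), rps0a and rps0b (0.0863%) or rps18a and rps18b (0.0108%). At an unadjusted limma p under 0.05 there were 7, 5, 0 and 1 members in those 4 pairs, beside 11.8%, 16%, 8.45% and 4.81% of all probe sets. For 7854_i_at in particular, the 2 RPS0 deletions differed by less than 0.2, as did the 2 RPS18 deletions.

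Genes that work on the small subunit were examined beside its proteins. Of 24 assembly factors and chaperones, 2 rose over the mean of the small subunit deletions, where 2.75% of all probe sets were called: the rRNA methyltransferase BUD23 by 0.60 ± 0.14 (adjusted p 0.0416) and the export factor RRP12 by 0.63 ± 0.15 (adjusted p 0.0456). The list's median there was 0.504, beside -0.000893 for all probe sets, and it was 0.272 without normalisation beside -0.15. The rise was not particular to these strains. By single deletion the list's median ran between 0.39 in rps0a and 0.596 in rps0b among the small subunit deletions. Among the large subunit deletions it ran between -0.0303 in rpl22b and 0.416 in rpl22a, with 0.376 in rpl14a. BUD23 also rose by 1.00 ± 0.18 in rps0b (adjusted p 0.0128), where 2.62% of all probe sets were called. TSR1, a late assembly factor, was lower in the large subunit deletions than in the small, with a difference of -0.62 ± 0.12 (adjusted p 0.0187). In that comparison 3.32% of all probe sets were called. In rpl7a, 5 assembly factors rose, among them YAR1 by 1.97, NOC4 by 1.44 and HRR25 by 1.36, and all 5 lie on chromosome XVI, beside 6.57% of all probe sets called. In rpl22a (2.45% of all), SLX9 rose by 0.98 and YAR1, the chaperone of Rps3, by 1.11. In the other 8 deletions none of the 24 was called.

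Of 28 probe sets for 18 regulators of ribosomal protein genes, 2 were called in a deletion, both in rpl7a and both on chromosome XVI, a share near the 6.57% of all probe sets called there. FHL1, a transcription factor bound at these promoters, rose by 1.22 ± 0.25 (adjusted p 0.00899), and TCO89, a subunit of the TORC1 kinase complex, by 1.11 ± 0.17 (adjusted p 0.00159). Of 14 initiation factors that bind the small subunit, 1 was called in rpl7a and 1 in rpl12b. Of all probe sets, 6.57% and 2.1% were called there. SUI3 rose by 0.85 in rpl7a, where its chromosome XVI was raised, and GCD11 by 0.96 in rpl12b, where its chromosome V was raised. FUN12 and the recycling factor RLI1 were lower in the large subunit deletions than in the small, beside 3.32% of all probe sets called. The differences were -0.34 ± 0.08 (adjusted p 0.0425) and -0.51 ± 0.09 (adjusted p 0.015). The median of the 14 factors there was -0.212, beside 0.00169 for all probe sets. Without normalisation it was -0.0613, beside 0.0379.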

How the data were processed

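Total RNA of 24 cultures was hybridised to Affymetrix YG-S98 arrays, after labelling of cRNA made from oligo-dT-primed cDNA, per the labels' protocols. The authors deposited 1 linear intensity per probe set and array; the sources used here do not give how probes were summarised or scaled. Values under 3.6 (9.89% of all) were set to 3.6 and log2 values were quantile normalised over 9335 probe sets. After 60 controls were left out, 9275 probe sets were fitted with 12 strain means in limma 3.58.1 (R 4.3.3), with Benjamini-Hochberg adjustment and a threshold of 0.05. Large and small subunit deletions were compared over 11 strain means. A deleted gene's probe sets were left out in its own strain, by refitting where strains were pooled. The number of arrays limits the precision.

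Gene names came from the platform annotation, updated by gene identifier: 6504 probe sets had 1 name, 328 several and 2443 none. In the array maker's naming, probe sets ending in _s_at or _f_at can match several genes, those ending in _i_at are incomplete sets and those in _g_at match a group. Near-identical copies can share signal in these probe sets, so those naming 2 genes are given for both.

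The counts cover all 64 members, and 1 of them is not reported individually here. The members and lists were chosen with earlier results of these data known. Genes named were those called in a comparison (up to 10 each way), the 10 with the highest F, the 5 highest and lowest in each pooled comparison, deleted genes, members on raised chromosomes, genes whose probe sets differ in call and up to 3 called genes per other list. Replicate numbers were not used to pair the samples in the main fits. Deviations of same-numbered arrays correlated between -0.0148 and 0.191 over 66 strain pairs, with a median of 0.0638 and 19 pairs over 0.1. These correlations were small but leaned positive, and their source was not tested. Counts from fits with the replicate block are in the closing section. On simulated data for rpl7b against WT over 9275 probe sets, 46% of changes of 2-fold and 74% of 4-fold were called. The changed probe sets were drawn from all 9275, whose median SD between replicates was 0.303, against 0.124 for members. These shares are therefore not those for the members. Alternatives to the normalisation, floor, filter, variance model and arrays used are given in the closing section.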

Additional observations from a re-analysis of the deposited data

Results flagged for a closer look

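The difference between large and small subunit deletions was tested directly and passed for 3 of 64 members (4.69%), beside 3.32% of all probe sets. RPS9 7854_i_at was higher in the large subunit deletions by 2.62, RPS9A 7855_f_at was higher by 1.22, and RPS25B 10002_i_at differed by -0.37 on the log2 scale. The RPS25B call was lost in 12 of 41 alternative fits. Deletions of the 2 RPL7 copies also differed in 3 of 64 members (4.69%), beside 5.35% of all probe sets. RPS9 7854_i_at differed by 1.09 and RPS9A 7855_f_at by 0.71, higher in rpl7a than in rpl7b, and RPS14B 11235_at by -0.74, lower in rpl7a. In this pair the call was lost in 2 of 12 alternative fits for 7854_i_at, 8 of 12 for 7855_f_at and 5 of 12 for RPS14B.

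Among the 7 large subunit deletions, RPS26B 5571_at in rpl12b stood apart from the others at a log2 signal of 11.35, with the nearest strain mean at 10.73. The gap was 0.591 of the range. It was 1 of 19 groups tested, and chance sets apart about 1 group in 20 by this measure. RPS26B lies on chromosome V, whose mean was 0.929 higher in rpl12b than in WT.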

How the results depend on the processing

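For each deletion against WT, 17 calls became 26 with the floor at the 25th percentile, 0 when only the 4 arrays compared were fitted, and 7 to 20 with 1 array left out. For the pairs of copies, 3 calls became 1 without normalisation, 6 with the 25th percentile floor, 1 with log2(value + 1), 7 with limma's trend and robust options, 6 with the replicate block, 0 with only the 4 arrays compared, and 1 to 8 with 1 array left out. The F test's 3 calls became 9 with the 25th percentile floor, 7 with trend and robust options, 6 with the replicate block, and 2 to 7 with 1 array left out. For the mean of 11 deletions, 0 calls became 1 without normalisation, 1 with median centring, 2 with the 25th percentile floor, 1 with trend and robust options, 1 with the replicate block, and 0 to 1 with 1 array left out. The small subunit deletions' 3 calls stayed at 3 with the replicate block and became 1 to 3 with 1 array left out. The 3 calls between large and small subunit deletions became 9 with the array as unit and the replicate block, and 2 to 4 with 1 array left out. The cause was not tested, except that fewer arrays leave fewer degrees of freedom.

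Of the 29 member calls, 5 held under every alternative run: RPS9 7854_i_at by F, over the small subunit deletions and between large and small, and RPS9A 7855_f_at by F and between large and small. Over all 29 there were 549 alternative values, of which 431 kept the call, 118 lost it and 0 changed direction. The 4 single-strain falls of 7854_i_at in the small subunit deletions were lost only when 4 arrays were fitted alone. On simulated data for rpl7b against WT, 16% of changes of 1.5-fold were called with 2 arrays a strain, for probe sets drawn from all 9275.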

Other observations

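The strain markers gave the following values. URA3 was above background in 0 of 24 arrays and MET17 in 6, while both HIS3 probe sets were above background in 24. The 3 LEU2 probe sets were above background in 0, 19 and 22 arrays. The a-specific receptor gene STE2 was above background in all 24 arrays. In rpl14a, STE2 differed from WT by -1.13 ± 0.16 (adjusted p 0.00169) and the protease gene BAR1 by -2.87 ± 0.16 (adjusted p 8.87e-08), while the 4 alpha-specific probe sets had differences between -0.224 and 0.467 with no call.

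RPS10B 9413_f_at was the dimmest and most variable of the small subunit probe sets, with an SD between replicates of 0.599. It had 5.38 and 3.15 in rps0a, against 5.40 and 5.61 in WT, and was above background in 23 of 24 arrays.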
